A study of Homo sapiens with 6 samples.

Results

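The genes of respiratory complex I were taken as the protein-coding genes of the GENCODE annotation (release 29, build GRCh38) whose symbols begin with NDUFA, NDUFB, NDUFC, NDUFS, NDUFV or NDUFAF. The rule gave 48 genes of the 19864 protein-coding genes on chromosomes 1 to 22 and X. By symbol, 40 were subunits and 8 were assembly factors (NDUFAF1 to NDUFAF8). The rule used names alone and no measured value.

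Complex I is the NADH dehydrogenase of the inner mitochondrial membrane and the entry point of most electrons into the respiratory chain. A hydrophilic arm in the matrix carries electrons from NADH along a row of iron-sulfur clusters to ubiquinone, and a membrane arm pumps protons. The core subunits of the membrane arm are encoded by the mitochondrial genome, so the nucleus supplies the core subunits of the hydrophilic arm, all accessory subunits and the assembly factors that help build the complex but leave it. Many promoters of nuclear respiratory genes are rich in CpG and lack a TATA box.

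K562, a line grown from a human chronic myeloid leukaemia and called lymphoblastoid in the labels, was the only cell source, and no group carried a treatment. The libraries were made by precision run-on sequencing, which marks the positions of RNA polymerases engaged on DNA, and formed 3 groups of 2 replicates grown at least 3 passages apart. PRO-seq 1M used the published protocol on 1M permeabilized cells, qPRO-seq 1M a shortened protocol on the same number, and qPRO-seq 250k the shortened protocol on 250k cells. The 1M libraries had 11 PCR cycles and the 250k libraries 14, so input, cycle number and list cannot be told apart. Wherever 3 values follow each other below, they refer to PRO-seq 1M, then qPRO-seq 1M, then qPRO-seq 250k.

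What was measured at each gene is a peak call. The authors deposited 1 list of dREG peaks per group, named for both replicates. dREG is a classifier that scores the pattern on both strands of engaged polymerase typical of active promoters and enhancers. The lists held 24707, 38177 and 15562 peaks on chromosomes 1 to 22 and X. They contain no read counts, so depth is unknown, and a single list per group leaves no replicate spread against which lists could be tested. Absence of a peak means that none was called, not that a gene was silent. The intervals below are 95% intervals for counting error only. Of marker genes for the cell type, 6, 7 and 6 of 7 erythroid genes had a peak at a start in the 3 lists. Of 6 B lymphoid genes, 2, 2 and 1 had one, with PAX5, MS4A1, CD79A and CD79B in no list. None of the 3 T lymphoid genes (CD3E, CD3D and CD2) had one, so the defining lymphoid markers were largely without peaks.

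A gene was given a start peak in a list when the list had a peak no more than 500 bp from an annotated start of any of its transcripts. Most complex I genes had one in every list. In PRO-seq 1M a start peak was present at 42 of 48 genes (87.5%, Wilson interval 75.3 to 94.1%), where 52.9% of all protein-coding genes had one. In qPRO-seq 1M the count was 44 of 48 (91.7%, 80.4 to 96.7%), where the share of all genes was 54.5%. In qPRO-seq 250k it was 41 of 48 (85.4%, 72.8 to 92.8%), against 44.0% of all genes. All 3 lists held a start peak for 39 of 48 genes (81.25%, 68.1 to 89.8%), against 43.1% of all genes. Both 1M lists held one for 41 of 48 genes (51.0% of all genes). In total, 6 genes had one in 1 or 2 lists (13.4% of all genes) and 3 had none (43.5% of all genes). The window of 500 bp decided few calls: among genes with a start peak, the farthest lay 15 bp from the nearest annotated start (NDUFS3 in qPRO-seq 250k), and the nearest peak outside the window lay 525 bp away (NDUFA11 in PRO-seq 1M).

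**Figure D1:**
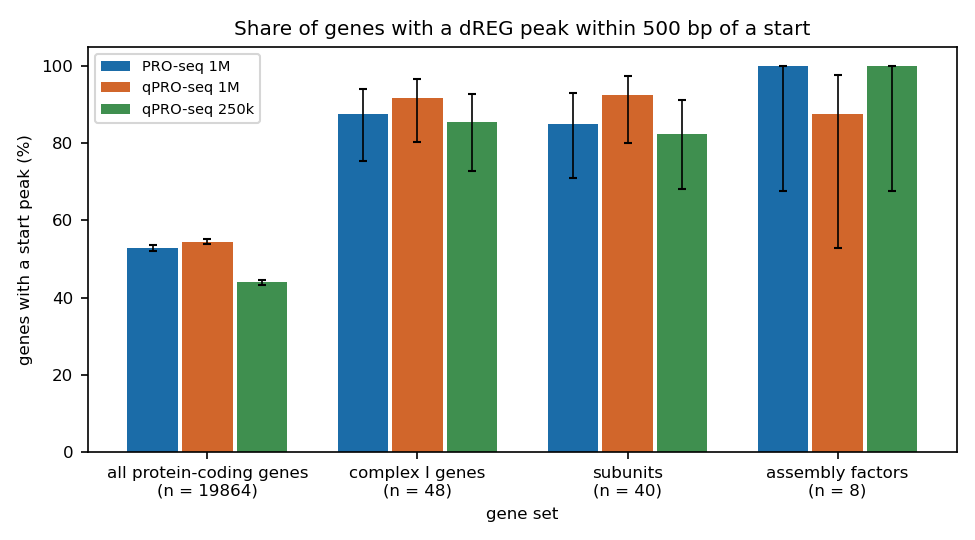
Share of genes with a dREG peak within 500 bp of an annotated start, in percent, for all protein-coding genes, complex I genes, subunits and assembly factors. Bars are the 3 peak lists, and error bars are Wilson 95% intervals. The complex I bars stand between 85.4% and 91.7%, and the bars of all protein-coding genes between 44.0% and 54.5%.

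Within each list, the score of a peak was ranked as the percentage of that list's peaks scoring at or below it. The score is the authors' own value and has no unit. Where a gene had several start peaks, the highest-scored (top) peak was used. Because the lists differ in length, a percentile places a peak within its own list and says nothing about a change between lists.

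The core subunits carry the flavin and the iron-sulfur clusters, and all 7 had a start peak in all 3 lists. NDUFV2, which binds an iron-sulfur cluster beside the NADH site, had top peaks at percentiles 99.1, 95.3 and 97.6. NDUFS1, the large subunit that holds several clusters, followed at 91.4, 96.3 and 81.6. No list put either gene below 81.6. NDUFS8, which carries clusters on the way to ubiquinone, stood at 72.6, 87.9 and 83.1. NDUFS3, a subunit of the same module without a cluster, stood at 77.3, 81.8 and 77.5. Its start peak in every list depended on an upstream annotated start, as described further on. NDUFV1, which holds the flavin and the NADH site, was lower at 67.6, 66.4 and 41.7. NDUFS7, which carries the last cluster before ubiquinone, spanned a wide range, at 2.91, 72.7 and 24.8. Its peak in PRO-seq 1M was close to the authors' limit, with a deposited p-value of 0.031, and those in the other lists had 2.08e-10 and 0.0124. With a limit of 0.01 on that p-value, NDUFS7 kept its start peak in qPRO-seq 1M alone.

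NDUFV2 lies on the plus strand at chr18:9102630-9134345. Its top peaks covered chr18:9102131-9103080, chr18:9102201-9103090 and chr18:9102181-9102850. The stretch before the gene that all 3 of these peaks cover, chr18:9102449-9102629, is shown because no list put NDUFV2 below percentile 95.3. It is printed 5′ to 3′ on the plus strand from the RefSeq promoter table (GRCh38.p14), with capitals marking CCGCCC, the reverse complement of the GGGCGG box bound by SP1-family factors.

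NDUFV2 promoter: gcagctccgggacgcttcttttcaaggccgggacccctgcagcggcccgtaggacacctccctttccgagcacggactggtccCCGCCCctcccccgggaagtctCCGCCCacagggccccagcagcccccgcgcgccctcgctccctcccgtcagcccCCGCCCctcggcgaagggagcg

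That window held 3 such boxes, and with 74.7% G and C its 300-base promoter was the most GC-rich of the 40 complex I promoters in the table.

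The accessory subunits of the hydrophilic arm stabilise it and contain no redox centre. Of the 9 genes, 8, 8 and 7 had a start peak in the 3 lists. NDUFA7 had a top peak at percentiles 97.5, 98.4 and 70.3. NDUFV3, a small subunit of the NADH-binding tip, stood at 90.6, 92.4 and 85.3. NDUFA9, a nucleotide-binding subunit near the ubiquinone site, ranked high in both 1M lists, at 98.0 and 87.3, and had no start peak in qPRO-seq 250k, where the nearest peak was 110175 bp away. NDUFA5 stood at 95.6, 86.0 and 56.3, and NDUFA2 at 73.2, 83.2 and 67.2. NDUFS4, one of the subunits most often mutated in Leigh syndrome, stood at 72.4, 65.7 and 17.3. NDUFS6, which binds zinc, stood at 62.3, 78.4 and 38.4, and NDUFA12 at 42.1, 74.6 and 66.9. NDUFA6, a member of the LYR family that docks the acyl carrier protein, had no start peak in any list.

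The 20 accessory subunits of the membrane arm form the largest class, and 17, 19 and 16 of them had a start peak in the 3 lists. Their top peaks had median percentiles of 88.1 (70.9 to 90.8), 88.1 (77.0 to 92.9) and 80.6 (53.5 to 91.5). These intervals contained the medians over all protein-coding genes with a start peak, which were 76.4, 80.7 and 68.2. NDUFB6 had the highest rank of any complex I gene in qPRO-seq 1M, at 99.9, and stood at 89.2 and 91.5 in the other lists. NDUFA1, encoded on the X chromosome, stood at 96.1, 97.9 and 93.3. NDUFS5 stood at 89.4, 96.4 and 97.5, and NDUFB9, an LYR-family subunit, at 90.9, 96.1 and 94.4. No list put any of these 4 genes below 89.2. NDUFC1 stood at 95.3, 88.1 and 87.5, and NDUFB3 at 88.1, 79.6 and 88.1. NDUFA13, also known as GRIM-19, was at 90.8 in both 1M lists and at 47.4 in qPRO-seq 250k. NDUFB1 was among the lower ones, at 66.5, 70.8 and 28.7, as was NDUFB11, also on the X chromosome, at 71.3, 68.3 and 38.0. NDUFB8 had a peak in both 1M lists, at 69.1 and 80.3, and none in qPRO-seq 250k. NDUFA8 and NDUFA11 had one in qPRO-seq 1M alone, at 48.1 and 27.2, and NDUFA3 had none. The other 7 genes of the class had peaks in all lists, at percentiles from 53.5 to 93.0.

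NDUFB6 lies on the minus strand at chr9:32552999-32573184. Its top peaks covered chr9:32572931-32573490, chr9:32572921-32573600 and chr9:32572851-32573480. The stretch just before the gene that lies inside all 3 of them, chr9:32573185-32573409, is shown because it belongs to the best ranked complex I peak. It is printed 5′ to 3′ on the minus strand from the same RefSeq table and has no capitals, since none of the 6 motifs described further on occurs in it.

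NDUFB6 promoter: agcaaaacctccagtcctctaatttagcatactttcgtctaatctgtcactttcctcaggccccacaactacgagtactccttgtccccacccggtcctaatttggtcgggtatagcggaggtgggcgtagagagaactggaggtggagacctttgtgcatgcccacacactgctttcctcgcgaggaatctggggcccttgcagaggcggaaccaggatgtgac

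The 300-base promoters of NDUFV2 and NDUFB6 held 74.7% and 56.3% G and C.

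NDUFAB1 encodes the mitochondrial acyl carrier protein, which sits in both arms. It had a start peak at percentile 64.6 in qPRO-seq 1M and 23.8 in qPRO-seq 250k and none in PRO-seq 1M. The symbol rule also took in 3 genes that are not structural subunits of complex I in the strict sense. NDUFA4, whose product is now assigned to cytochrome c oxidase, had top peaks at 77.9, 94.4 and 92.6. Its paralogue NDUFA4L2, a target of hypoxia-inducible factor, had no start peak in any list. NDUFC2-KCTD14, a read-through gene that begins in NDUFC2, had peaks at 8.58, 40.0 and 1.74. Those peaks were also start peaks of NDUFC2, whose own top peak lay further upstream at 80.3, 90.1 and 53.5, so these 2 genes are not separate measurements.

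**Figure D2:**
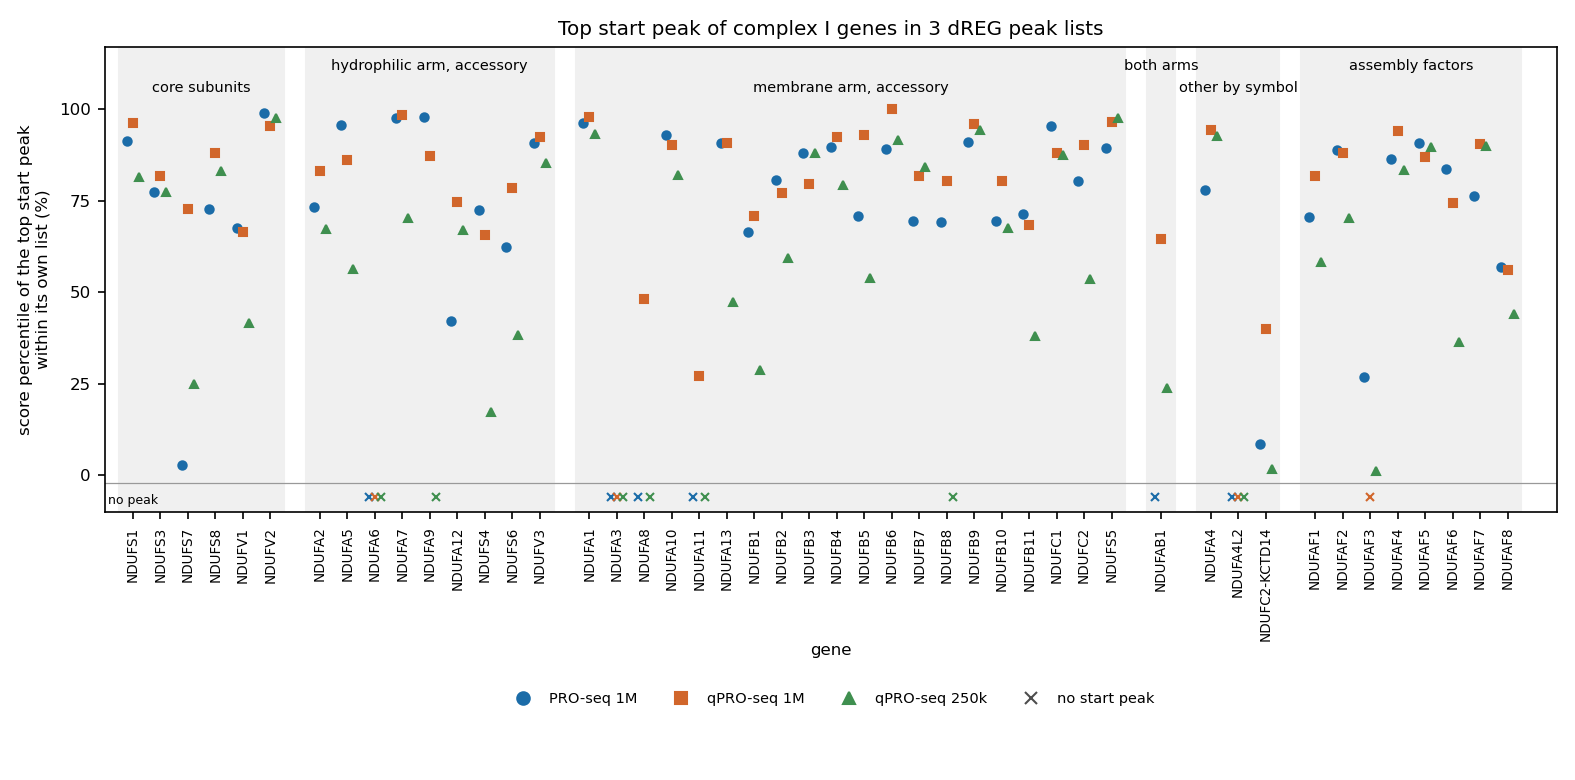
Score percentile of the top start peak (vertical axis, percent of the peaks of the same list scoring at or below it) for complex I genes, grouped by role, in the 3 peak lists. Crosses under the line mark genes with no start peak. The 6 core genes shown have a point in every list, and NDUFA3, NDUFA6 and NDUFA4L2 have 3 crosses each.

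Of the 8 assembly factors, 8, 7 and 8 had a start peak in the 3 lists. NDUFAF5, which hydroxylates NDUFS7, stood at percentiles 90.7, 86.9 and 89.7, and NDUFAF4, which acts in assembly of the ubiquinone module, at 86.4, 94.0 and 83.4. NDUFAF7, a methyltransferase, stood at 76.3, 90.6 and 89.8. NDUFAF2, a paralogue of NDUFA12 that binds a late intermediate, stood at 88.8, 88.1 and 70.2. NDUFAF1, which acts in assembly of the membrane arm, stood at 70.5, 81.7 and 58.1. NDUFAF6 stood at 83.6, 74.4 and 36.3, but these values come from separate sites. The PRO-seq 1M value belongs to a peak upstream of its first start, which also lay by a start of the gene CCNE2. The values of both qPRO-seq lists belong to peaks at a later start. PRO-seq 1M had a peak there too, at percentile 42.6, separated from the first by 129220 bp. NDUFAF8, a partner of NDUFAF5, was lower at 56.8, 56.2 and 44.0. NDUFAF3, the binding partner of NDUFAF4, had the lowest ranks of the 8, at 26.8 and 1.24, with no start peak in qPRO-seq 1M. Its gene spans chr3:49020459-49023495 on the plus strand, and its peaks (chr3:49021191-49021730 and chr3:49021371-49021690) lay inside the gene, by a later annotated start.

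Subunits and assembly factors were compared by the share with a start peak. In PRO-seq 1M, 34 of 40 subunits (85.0%) and 8 of 8 assembly factors had one, a difference, subunits minus assembly factors, of -15 percentage points (Newcombe interval -29.1 to 18.4). In qPRO-seq 1M the counts were 37 of 40 (92.5%) and 7 of 8 (87.5%), a difference of 5 points (-11.1 to 39.9). In qPRO-seq 250k they were 33 of 40 (82.5%) and 8 of 8, a difference of -17.5 points (-32.0 to 16.1). All 3 intervals included 0, and with 8 assembly factors they were wide enough to allow differences of either sign. The median percentile of the top peak was 79.1, 86.0 and 70.3 for subunits and 80.0, 86.9 and 64.2 for assembly factors. The interval of each assembly factor median enclosed the subunit median of the same list.

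Over all complex I genes with a start peak, the median percentile was 79.1 (72.4 to 89.2), 86.5 (80.3 to 90.3) and 70.2 (53.9 to 83.4). Over all protein-coding genes with a start peak the medians were 76.4, 80.7 and 68.2, and the value for all genes lay inside the complex I interval in each list. Top peaks at or above percentile 90 were found at 12 of 42 complex I genes in PRO-seq 1M (23.1% of all genes with a start peak), 17 of 44 in qPRO-seq 1M (28.4%) and 7 of 41 in qPRO-seq 250k (17.3%). Top peaks below percentile 50 were found at 4 of 42 (18.8%), 3 of 44 (15.7%) and 12 of 41 (29.9%). The order of the genes was partly shared between lists. Spearman's rho of the percentiles was 0.697 between PRO-seq 1M and qPRO-seq 1M (41 genes), 0.626 between PRO-seq 1M and qPRO-seq 250k (40 genes) and 0.780 between the qPRO-seq lists (40 genes). These are correlations across genes, which share libraries, and the same values over all protein-coding genes were 0.717, 0.640 and 0.656. The top peaks of the same gene overlapped in 39 of 41, 35 of 40 and 38 of 40 cases, and their deposited centres differed by a median of 40, 50 and 20 bp.

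The width of the top start peak had a median of 555 bp (510 to 630), 580 bp (510 to 640) and 480 bp (380 to 580), against 550, 540 and 470 bp over all genes with a start peak. Widths ran from 260 to 1060 bp, from 330 to 970 bp and from 220 to 890 bp. The widest top peaks in qPRO-seq 1M belonged to NDUFS1 (970 bp), NDUFC2 (950 bp) and NDUFV2 (890 bp). In PRO-seq 1M the widest belonged to NDUFC2 (1060 bp), NDUFB3 (990 bp) and NDUFA7 (970 bp), and in qPRO-seq 250k to NDUFA1 (890 bp). NDUFA12 was at the narrow end, with 260, 330 and 310 bp. Wider peaks tended to rank higher: Spearman's rho of width and percentile was 0.439, 0.565 and 0.571 across complex I genes (42, 44 and 41 genes) and 0.593, 0.587 and 0.551 across all genes. Core subunits had median widths of 640, 640 and 580 bp.

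Subunits had median top peak widths of 565, 600 and 490 bp and assembly factors of 540, 520 and 395 bp. The intervals of these medians overlapped in every list (430 to 680 bp for assembly factors against 450 to 640 bp for subunits in PRO-seq 1M), so a difference in width was not resolved with 7 or 8 assembly factors.

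Several genes had more than 1 start peak: 20 of 42 in PRO-seq 1M (49.6% of all genes with one), 31 of 44 in qPRO-seq 1M (61.6%) and 13 of 41 in qPRO-seq 250k (32.7%). NDUFV3 had the most, with 3, 7 and 4 peaks. They formed 2 groups, the first around chr21:42878581-42880000 and the other around chr21:42892751-42893510 in PRO-seq 1M, and the higher-scored group was the second in both 1M lists and the first in qPRO-seq 250k. NDUFC1 had 3, 6 and 3 start peaks. Its strongest, at percentiles 95.3, 88.1 and 87.5, covered chr4:139301021-139301900 in PRO-seq 1M. The deposited centre of the top peak lay upstream of the nearest annotated start in 30 of 42, 35 of 44 and 27 of 41 genes (73.3%, 73.6% and 75.5% over all genes). A start lay inside the top peak in 38 of 42, 38 of 44 and 36 of 41 genes (88.6%, 85.3% and 87.8%). The median distance from centre to start was 49.5, 44 and 31 bp, against 52, 59 and 50 bp over all genes.

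**Figure D3:**
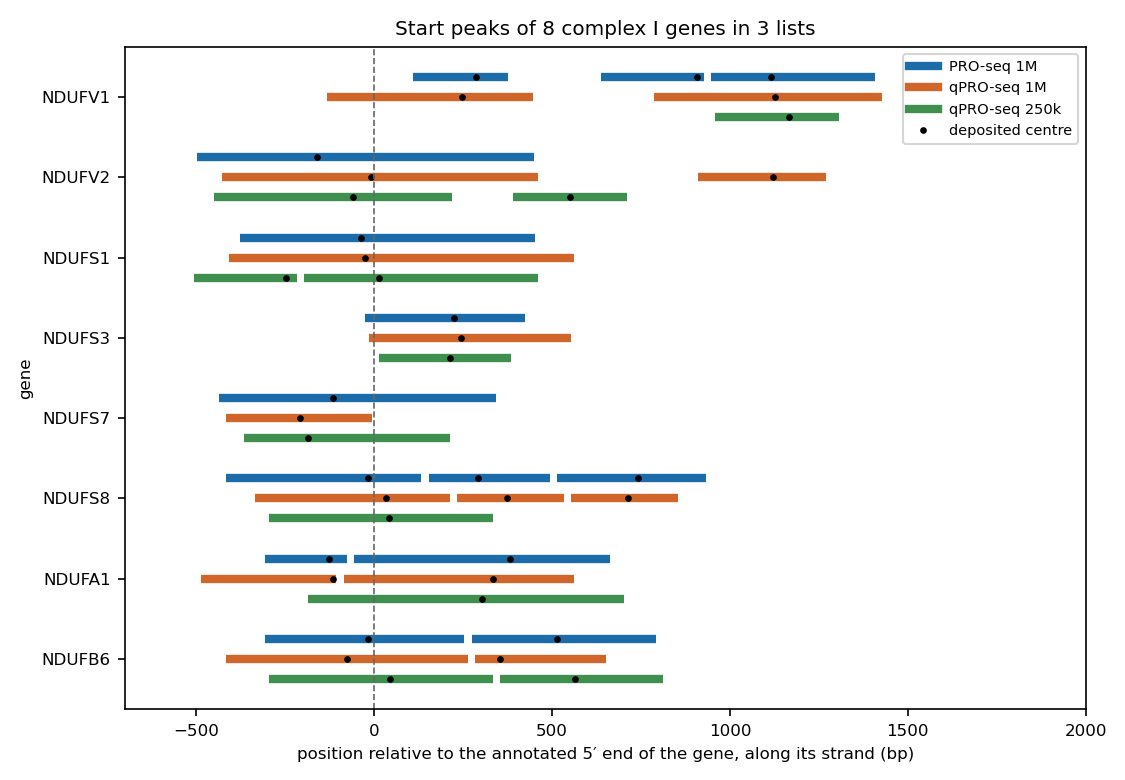
Start peaks of 6 core and 2 membrane-arm genes as horizontal bars, with dots for the deposited centres, against position in bp relative to the annotated 5′ end of the gene (dashed line, positive downstream). The 3 lists place peaks at similar positions for NDUFS1, NDUFS3 and NDUFB6, and NDUFV1 has 3, 2 and 1 peaks.

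Some start peaks sat at starts other than the one RefSeq lists for the gene. The RefSeq promoter table held 40 of the 48 genes, and 32, 34 and 30 of their RefSeq starts had a peak within 500 bp. NDUFS3 is the clearest case: its gene spans chr11:47565336-47584562 on the plus strand, its peaks lay at the upstream end (chr11:47565311-47565760 in PRO-seq 1M), and its RefSeq start at 47579074 had no peak within 500 bp in any list. The start peak of NDUFS3 therefore marks an upstream annotated start, and it was lost in all 3 lists when starts were limited to those of basic protein-coding transcripts. The RefSeq starts of NDUFA5 and NDUFAF3 also had no peak within 500 bp in any list, and that of NDUFAF8 had one in PRO-seq 1M alone.

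Many complex I genes share their promoter region with another protein-coding gene transcribed in the opposite direction. A head-to-head neighbour had a start on the opposite strand, at most 1000 bp upstream of a start of the gene. Opposite-strand neighbours starting only downstream, and neighbours on the same strand, were not counted. Such a head-to-head neighbour was found for 24 of 48 complex I genes (50.0%, 36.4 to 63.6%), where 15.5% of all protein-coding genes had one. The count was 18 of 40 subunits and 6 of 8 assembly factors. For the core gene NDUFS1 the neighbour was EEF1B2, a translation elongation factor subunit, 2 bp away. NDUFS6 faced MRPL36 at 34 bp and NDUFB5 faced MRPL47 at 36 bp, both genes of mitochondrial ribosomal proteins. NDUFA7 faced RPS28, a cytosolic ribosomal protein gene, at 99 bp, NDUFA2 faced IK at 44 bp, and NDUFC1 faced NAA15, a subunit of the N-terminal acetyltransferase, at 35 bp. Among assembly factors, NDUFAF2 faced the DNA repair gene ERCC8 at 56 bp, NDUFAF5 faced ESF1 at 64 bp and NDUFAF7 faced CEBPZ at 54 bp. For NDUFS1, NDUFS6, NDUFB5, NDUFA7, NDUFA2, NDUFC1, NDUFAF2, NDUFAF5 and NDUFAF7, the top peak lay within 500 bp of a start of the neighbour in all 3 lists. The same held in all 3 lists for NDUFA13, NDUFB1, NDUFB3, NDUFB9, NDUFB11 and NDUFAF8. It also held for NDUFA8, NDUFA9 and NDUFAF3 in each list where they had a start peak. For NDUFV3 it held in qPRO-seq 250k alone, by a start of WDR4. For NDUFAF6 it held in PRO-seq 1M alone, by a start of CCNE2. All these peaks, and the percentiles given for them, cannot be assigned to 1 of the 2 genes.

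The share with a start peak was the same for complex I genes with and without such a neighbour in PRO-seq 1M (21 of 24 each, 87.5%) and in qPRO-seq 1M (22 of 24 each, 91.7%), and it was 20 of 24 and 21 of 24 in qPRO-seq 250k. Over all protein-coding genes the shares were 83.0% with and 47.3% without a neighbour in PRO-seq 1M, 84.1% and 49.0% in qPRO-seq 1M, and 76.0% and 38.1% in qPRO-seq 250k. The percentile medians of the complex I genes with a neighbour were 83.6, 87.1 and 70.3, and those without were 77.9, 83.9 and 67.6, with overlapping intervals.

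Promoter sequences of 300 bases, from 250 before to 50 after the RefSeq start, were searched for 6 short motifs on both strands. The motifs were GCATGCG for NRF1, a factor known for its control of respiratory genes, CCGGAAG for the ETS family that includes GABPA, GATGGCG for YY1, GGGCGG for SP1-family factors, CCAAT for NF-Y, and TATAAA for the TATA box. GCATGCG occurred in 7 of 40 complex I promoters (17.5%), against 5.19% of the 14866 promoters in the table. GATGGCG occurred in 5 (12.5%, against 5.85%) and CCGGAAG in 6 (15.0%, against 14.4%). GGGCGG occurred in 23 (57.5%, against 59.4%), CCAAT in 11 (27.5%, against 36.3%) and TATAAA in 3 (7.50%, against 9.38%). No motif contains another, and a match says only that the letters are present. The median content of G and C was 60.8% in complex I promoters and 63.0% over all promoters, and the median ratio of observed to expected CpG was 0.844 and 0.768.

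For each gene, the NRF1-type match nearest to the RefSeq start is printed with 10 bases on each side, because NRF1 is the motif with the largest ratio of complex I to background share among the 6. Each is read 5′ to 3′ on the gene's own strand (GRCh38.p14, RefSeq), and capitals mark the match or its reverse complement CGCATGC. NDUFA8, NDUFAF5, NDUFB4, NDUFS6 and NDUFS7 held 2 matches each, which overlap on opposite strands inside the printed window, and capitals mark 1 of them. Positions are chr22:42090922-42090948 on the minus strand for NDUFA6, chr9:122159765-122159791 minus for NDUFA8, chr6:96897868-96897894 minus for NDUFAF4, chr20:13785016-13785042 plus for NDUFAF5, chr3:120596169-120596195 plus for NDUFB4, chr5:1801353-1801379 plus for NDUFS6 and chr19:1383824-1383850 plus for NDUFS7.

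NDUFA6: ctgtagatgaGCATGCGcagcacccac
NDUFA8: tgccggatgcGCATGCGcaggcgccgt
NDUFAF4: ctcacttgtgCGCATGCtccgggtgtc
NDUFAF5: ccgcgctggcGCATGCGcacaaaaagc
NDUFB4: agcacttcgcGCATGCGcatatcaccg
NDUFS6: gaagccgtgcGCATGCGttagcgctaa
NDUFS7: tccggtttccGCATGCGctccgagccg

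The 7 genes with these matches differed in their peaks. Of them, NDUFAF4, NDUFAF5 and NDUFB4 had top peaks at percentiles from 79.2 to 94.0, NDUFS6 and NDUFS7 ranged from 2.91 to 78.4, NDUFA8 had a start peak in qPRO-seq 1M alone, and NDUFA6 had none.

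The YY1-type match nearest to the RefSeq start is likewise shown for each of the 5 genes. These 5 matches read as spelled on the gene's strand and began 12 to 27 bases after the RefSeq start, with the same pair of bases before them. GATGGCG contains the letters ATG. Whether these are the start codons of the genes, which could bring the shared strand, position and preceding bases, was not tested. NDUFA7 held a second match, which is not shown. Positions are chr22:42090729-42090755 minus for NDUFA6, chr19:8321343-8321369 minus for NDUFA7, chr12:4649116-4649142 plus for NDUFA9, chr5:53560652-53560678 plus for NDUFS4 and chr19:1383916-1383942 plus for NDUFS7. Capitals mark GATGGCG.

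NDUFA6: gctttggcaaGATGGCGgggagcggcg
NDUFA7: gcggacggaaGATGGCGtccgccaccc
NDUFA9: tgtgggaaaaGATGGCGgctgccgcac
NDUFS4: cctgcagcaaGATGGCGgcggtgtcaa
NDUFS7: ccgaggccaaGATGGCGgtgctgtcag

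NDUFA6 and NDUFS7 held both motifs, and their peak calls differed, with a start peak in every list for NDUFS7 and in none for NDUFA6. The RefSeq start of NDUFS7 lay outside its peaks, 37, 387 and 167 bp from the nearest one. Its YY1-type match lay outside these peaks in every list, and its NRF1-type match lay inside the PRO-seq 1M peak alone.

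The 3 genes without any start peak were looked at by their surroundings. When the peaks of the 3 lists were joined, 33678 stretches without a peak remained between them, with a median length of 15.5 kb. NDUFA3 (chr19:54102728-54109257, plus strand), a membrane-arm subunit, lay in a stretch of 1060 kb, chr19:54025001-55084840. That stretch held the starts of 41 protein-coding genes, which gave it rank 4 among all stretches by gene starts and rank 414 by length. Its density was 38.7 gene starts per Mb, against 1.46 over the 455 stretches of at least 1 Mb. It held widely expressed genes such as RPS9 (a ribosomal protein), PRPF31 (a splicing factor), CNOT3 (a deadenylase subunit) and TSEN34 (a tRNA splicing endonuclease subunit), and the LILR and KIR families of immune receptors. Of the 41 genes, only EPS8L1, at the edge, had a start peak in any list. The other 40 genes, NDUFA3 among them, had none.

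NDUFA6 (chr22:42085525-42090955, minus strand) lay in a stretch of 197 kb, chr22:42071531-42268960, with the starts of PHETA2, SMDT1, NDUFA6 and CYP2D6. None of these 4 genes had a start peak in any list. SMDT1 encodes an essential regulator of the mitochondrial calcium uniporter. The nearest peaks lay 16055, 15805 and 16115 bp from a start of NDUFA6. NDUFA4L2 (chr12:57234903-57240715, minus strand) lay in a stretch of 147 kb with 3 gene starts, and the nearest peak in qPRO-seq 1M was 6935 bp away. For comparison, the median length of the stretch around genes with no start peak was 212 kb. The lists also held peaks on alternate sequences of chromosome 19 (2, 2 and 0 peaks) and of chromosome 22 (1, 5 and 1), and the part of these sequences in the missing peaks was not tested.

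**Figure D4:**
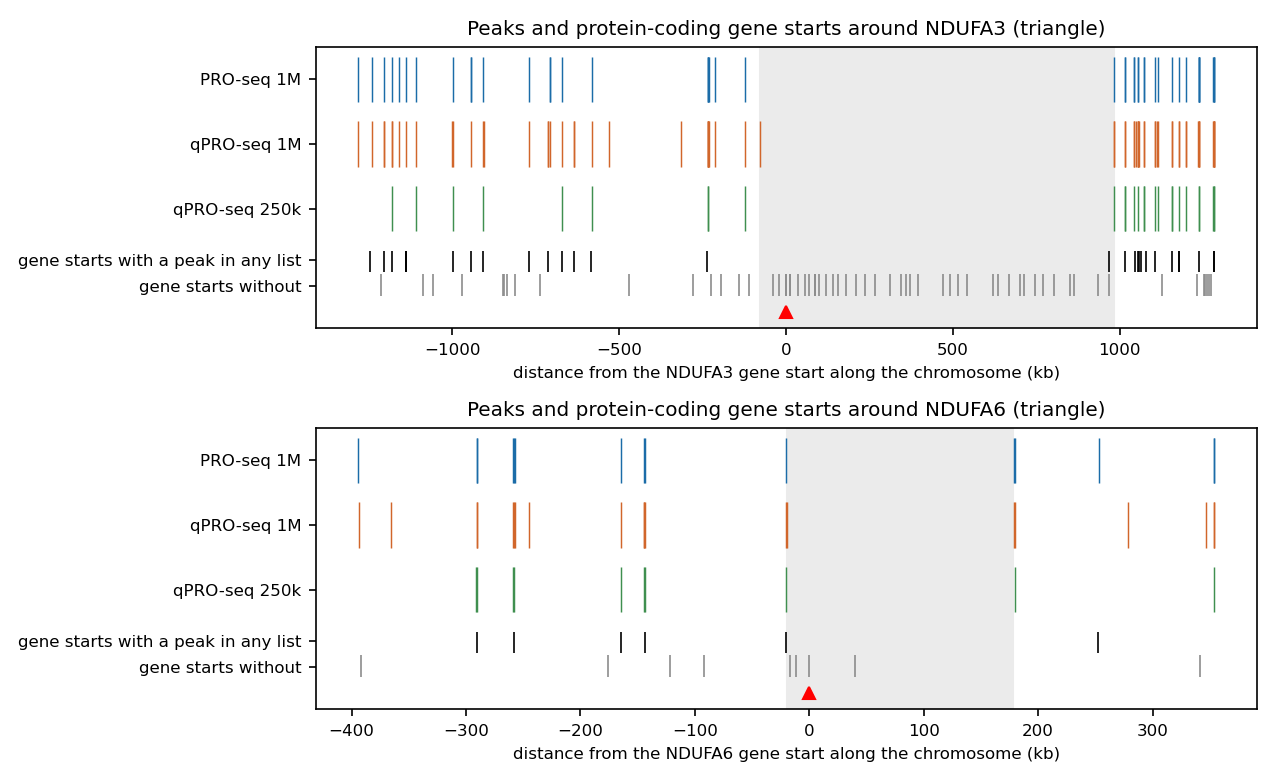
Peaks of the 3 lists (coloured ticks) and starts of protein-coding genes with and without a start peak (black and grey ticks) around NDUFA3 and NDUFA6, against distance in kb from the start of the gene (triangle). The shaded stretches of 1060 kb and 197 kb hold no peak of any list and 41 and 4 gene starts.

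Genes called in some lists only, counted above, were about as common as among all protein-coding genes (13.4%). Both 1M lists held a start peak for NDUFA9 and NDUFB8 while qPRO-seq 250k held none, which is 2 of 48 genes against 7.86% of all genes. qPRO-seq 1M but not PRO-seq 1M held one for NDUFA8, NDUFA11 and NDUFAB1 (3 of 48, against 3.49% of all genes), and the reverse was seen for NDUFAF3 (1 of 48, against 1.89%). The nearest PRO-seq 1M peak of NDUFA11 lay 525 bp from a start, just outside the window. For NDUFA8 the nearest peaks of the lists without a call were 54052 and 54152 bp away.

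Some peaks lay away from any transcript start but inside the body of a complex I gene. In PRO-seq 1M such peaks were found in 3 of 48 genes (6.25%, against 12.0% of all genes). The counts were 9 in qPRO-seq 1M (18.8%, against 23.1%) and 4 in qPRO-seq 250k (8.33%, against 7.01%). NDUFC2 and NDUFC2-KCTD14 shared 1 of these peaks in qPRO-seq 1M. NDUFB10 had 3 such peaks in qPRO-seq 1M and 2 in qPRO-seq 250k, the strongest at percentile 61.1 in the latter. NDUFA10 had 1 in qPRO-seq 1M, 49055 bp from its nearest start. The median length of complex I genes was 14744.5 bp and that of all protein-coding genes was 27220 bp, and the part of gene length in these counts was not tested.

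Genes of the other respiratory complexes and of complex I assembly outside the symbol rule were read in the same way. All 10 of the other complex I assembly factors had a start peak in all 3 lists, as did the 4 genes of complex II. Of 9 complex III genes, 7 had one in all lists. CYC1, the cytochrome c1 gene, had none, and UQCRB had one in both 1M lists alone. Of 10 complex IV genes, 9 had one in all lists and COX8A in both 1M lists alone. Of 19 ATP synthase genes, 18 had one in all lists and ATP5MGL had none. Of 7 regulators of respiratory genes, NRF1, GABPA, TFAM, ESRRA, PPRC1 and YY1 had a start peak in all lists, and PPARGC1A, the inducible coactivator PGC-1α, had none. The gene of NRF1 itself stood at percentiles 98.4, 91.1 and 97.8. ATP5MF and ATP5MF-PTCD1 had the same percentiles as each other in every list, and so did ATP5PF and GABPA. Neither pair can be taken as separate measurements.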

How the data were processed

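The data were 3 lists of dREG peaks from 6 run-on libraries of K562, 1 list per group. Per the labels, each list stands for 2 replicates; pooling, dREG version and thresholds are not given in the sources used here. The submitters' processing notes name builds hg38 and GRCh38 and the tools fastp 0.20.0, Bowtie2 2.3.5.1, UMI-tools and deepTools 3.1.3, without their roles. Read pairs were 37 nt with a 6-nt molecular identifier, per the labels. Peak scores are the authors' deposited values and have no unit. The deposited p-value of each peak ran up to 0.05, with no statement on adjustment.

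Peaks on chromosomes 1 to 22 and X were matched to GENCODE 29 transcript starts within 500 bp, and deposited starts were converted to count from 1. Percentiles were computed within each list. Shares carry Wilson intervals, differences of shares Newcombe intervals and medians order-statistic intervals, all at 95%. No test between lists was possible. All calls were made over the 19864 genes, with Python 3.11.15, NumPy 2.4.6 and SciPy 1.17.1, and the scripts were tested on simulated data. The genes and lists were chosen with earlier results of these data known. The named genes are the members, of which 1 is counted but not reported here by name, plus the pathway, marker, neighbour and stretch genes met by them; the stretch genes were picked after their values were seen. Alternatives changed the window, the p limit, the score limit, list size, merging of peaks and the set of starts. Another left out NDUFA4, NDUFA4L2 and NDUFC2-KCTD14.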

Additional observations from a re-analysis of the deposited data

Results flagged for a closer look

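The qPRO-seq 250k list held 5 peaks on the mitochondrial genome, above the limit of 3 that a count of 0 allows, while each 1M list held 1. These peaks took no part in the comparisons. The mitochondrial genome encodes 7 subunits of complex I (the MT-ND genes). In qPRO-seq 250k the fourth and the fifth peak overlapped MT-ND4 and MT-ND5, at score percentiles of 74.7 and 47.5, and no peak of a 1M list overlapped an MT-ND gene. The 1 peak of PRO-seq 1M and of qPRO-seq 1M covered positions 21 to 1030 and 21 to 1090. Read depth on this genome is unknown.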

How the results depend on the processing

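Over 106 recomputed values, 99 stayed inside the band set for them and 7 moved out of it. The band was the interval of the reported value, except for the count of genes with a start peak in all 3 lists. That count, 39 of 48 as reported, had a wider band of 26 to 58.5, which is not a 95% interval. With peaks at or above the median score it fell to 28 of 48. That value stayed inside the band, but its share lay below the Wilson interval of 68.1 to 89.8% given for the reported share. The difference between subunits and assembly factors in qPRO-seq 1M, 5 points as reported, was -2.5 points (-19.9 to 33.0) with peaks at or above the median score, and both intervals include 0. Without NDUFA4, NDUFA4L2 and NDUFC2-KCTD14, the differences in the lists were -13.5, 7.09 and -16.2 points, and each interval included 0. With all lists reduced to equal size, the median percentile of complex I genes was 69.5 in PRO-seq 1M and 69.6 in qPRO-seq 1M, and with peaks at or above the median score it was 64.4 and 74.6. These shifts follow from the construction, since the lower scores leave the list. With that score limit, the share with a start peak in qPRO-seq 250k was 60.4%. Merging peaks within 500 bp gave median widths of 935 bp in PRO-seq 1M and 1105 bp in qPRO-seq 1M. At equal size the shares were 81.25%, 83.3% and 85.4%, against 47.0%, 42.4% and 44.0% of all genes. With a partner window of 500 or 250 bp, chosen after seeing the data, 45.8% and 43.75% of complex I genes had a head-to-head neighbour, against 14.5% and 12.8% of all genes. No paired analysis was possible because each group has 1 list for both replicates, and for the same reason no replicate could be left out. Depth is unknown, so the reads behind a missing peak cannot be given.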
